A study of Mus musculus with 2 samples.

Results

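Myostatin signalling is described here by 8 of the 32285 genes counted, picked by symbol: the ligand genes Mstn, Gdf11 and Inhba, the type II receptor genes Acvr2a and Acvr2b, the antagonist genes Fst and Fstl3, and Fstl1, a relative of follistatin by name and domain. All 8 were found once each in the gene list and all 8 had UMIs, the molecules counted by their unique barcodes, in both libraries. The cells came from mouse embryos at embryonic day 14 without head and viscera, sorted for tdTomato (tdT), a reporter that Cre driven by the Myf5 promoter switches on for good in any cell that once used Myf5 or descends from one. One library was labelled SRSF2f/f/Myf5-Cre/tdT, with both alleles of the splicing factor gene Srsf2 open to deletion by Cre. The other was labelled SRSF2f/w/Myf5-Cre/tdT, with 1 floxed allele, from littermate controls. Both genotypes carried Myf5-Cre and the Rosa26 reporter, and the labels call each library 1 sample.

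The measured Srsf2 level went against these labels. In the library labelled SRSF2f/f, Srsf2 stood at 218.9 UMIs per 1000000 UMIs of all genes (CPM; 95% Poisson interval 216.6 to 221.3), and in the library labelled SRSF2f/w at 152.8 CPM (150.6 to 155.0), a log2 difference of -0.52 (-0.54 to -0.49), with the lower level in the library labelled SRSF2f/w in all 11 cell types. Muscle cells made up 11.2% of kept cells (1397 of 12523) in the library labelled SRSF2f/f and 0.590% (61 of 10345) in the library labelled SRSF2f/w. The authors' own run summaries name the library titled SRSF2f/f as WT and the library titled SRSF2f/w as KO. Each library is therefore called by its label throughout, each ratio is the library labelled SRSF2f/w over the library labelled SRSF2f/f, and no direction is assigned to a genotype. With 1 library per label no test between them was possible, and all intervals cover counting error only. The files hold 27766 barcodes, of which 22868 passed the limits on UMIs, genes and mitochondrial share, with a median of 10751 UMIs in the library labelled SRSF2f/f and 9480 in the other. The libraries shared 50 kept barcodes. Cell types were set by UMIs of 6 markers each, which left 8459 cells unassigned, and a further gene per type that was not used for the choice (Ttn for muscle, Col3a1 for mesenchymal cells, Col2a1 for chondrocytes, Sfn for epithelial cells and others) was highest in its own type for 11 of 11 types in both libraries. Erythroid cells (27 and 22 cells) were too few and were left out of all rankings and ranges over types, which cover 10 types.

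Myostatin, encoded by Mstn, is a secreted ligand of the TGF-beta family that skeletal muscle makes and that limits muscle mass. It binds the type II receptors ACVR2B and ACVR2A, and the signal passes through type I receptors to SMAD2 and SMAD3. GDF11 is its closest relative, better known for patterning the axial skeleton, and dimers of the Inhba product form activin A, which uses the same receptors. Follistatin (Fst) and FSTL3 bind these ligands outside the cell and block them. FSTL1 is a secreted glycoprotein of mesenchyme with a follistatin-like domain.

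In GRCm38 coordinates, Mstn lies at chr1:53061640-53068079, Gdf11 at chr10:128882295-128891718, Inhba at chr13:16011851-16031621, Acvr2a at chr2:48814109-48903269 and Acvr2b at chr9:119402118-119434995. Fst lies at chr13:114452290-114458951, Fstl3 at chr10:79777272-79782630 and Fstl1 at chr16:37776873-37836514. All are protein-coding genes, and none overlaps another annotated gene on its own strand. On the opposite strand Inhba, Acvr2a, Acvr2b, Fst and Fstl3 overlap other genes, whose reads the authors' counting kept apart by strand.

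Because Mstn was the member with the largest fold between its main cell type and the rest, its upstream sequence is shown with the E-boxes, the CANNTG letters that basic helix-loop-helix factors such as MYOD1 and myogenin can bind, in capitals. It covers the 250 bases before the annotated start in GRCm38.p6 (RefSeq), chr1:53061390-53061639 on the plus strand, read 5′ to 3′.
Mstn upstream: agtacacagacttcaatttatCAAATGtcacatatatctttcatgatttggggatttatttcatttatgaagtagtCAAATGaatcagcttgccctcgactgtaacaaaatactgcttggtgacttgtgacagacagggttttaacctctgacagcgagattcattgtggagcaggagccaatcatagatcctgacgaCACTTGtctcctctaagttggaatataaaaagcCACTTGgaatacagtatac
CANNTG reads the same on both strands. The window held 4 such matches, which start 229, 174, 52 and 19 bases before the start. Among 32851 upstream windows of the same length, 66.2% held at least 1 match and 3.835% held 4 or more. Of the other members with a window, Fstl3 had 3 matches, Gdf11 had 1, and Inhba, Acvr2a, Acvr2b and Fstl1 had 0. Fst had no window. The windows follow RefSeq starts, and those of Acvr2b, Fstl3 and Fstl1 run past the gene starts given above. These matches are letters only, and no binding was measured.

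Mstn was found in muscle cells at nearly the same level in both libraries, and at low levels in the other assigned cell types. In the library labelled SRSF2f/f, 1397 muscle cells held 1053 Mstn UMIs, a level of 49.0 CPM (46.1 to 52.0). In the library labelled SRSF2f/w, 61 muscle cells held 54 UMIs, or 54.2 CPM (40.7 to 70.7). The log2 ratio between libraries in muscle cells was 0.15 (-0.28 to 0.54), so the interval spans no difference. This holds for all muscle cells together. Cycling muscle cells were at 47.3 and 42.1 CPM. Non-cycling ones were at 55.1 (48.6 to 62.2) and 98.4 CPM (60.9 to 150), the latter on 21 UMIs in 16 cells. The share of muscle cells with a Mstn UMI was 33.7% (471 cells) in the library labelled SRSF2f/f and 31.1% (19 cells) in the library labelled SRSF2f/w, at median depths of 14436 and 15887 UMIs per cell. After every cell was thinned to 2000 UMIs, the shares were 8.75% (7.32 to 10.4) of 1394 cells and 8.20% (2.72 to 18.1) of 61 cells. Single cells held up to 23 Mstn UMIs, and the tenth of muscle cells with the most held 58.8% of its UMIs in the library labelled SRSF2f/f.

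Summed over all kept cells, Mstn differed more between the libraries than any other member. It stood at 11.9 CPM (1805 UMIs) in the library labelled SRSF2f/f and at 1.03 CPM (127 UMIs) in the library labelled SRSF2f/w, a log2 ratio of -3.53 (-3.80 to -3.27). The number of muscle cells differed in the same direction, as given above, while the CPM of all muscle cells together did not differ beyond counting error. The part of muscle cell numbers in the ratio over all kept cells was not tested. Muscle cells held 58.3% of all Mstn UMIs in the library labelled SRSF2f/f and 42.5% in the library labelled SRSF2f/w, and unassigned cells held 35.2% and 44.1%.

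Outside muscle, Mstn was at 1.51 CPM over 6446 other assigned cells in the library labelled SRSF2f/f and at 0.205 CPM over 6505 in the library labelled SRSF2f/w. Muscle cells were thus 32.3-fold (26.7 to 39.5) and 264-fold (151 to 486, on 54 and 17 UMIs) above the other assigned cells. Among 16393 genes with enough UMIs, 0.805% were at least 10-fold higher in muscle than in the other assigned cells in both libraries, and Mstn was the only member among them. Mesenchymal cells illustrate the low level elsewhere, with a UMI in 1.22% of 2874 cells (median depth 9874.5 UMIs) and in 0.245% of 1632 (10082.5). The muscle transcription factor Myog moved in the same way in these non-muscle cells, with 18.2 CPM in the library labelled SRSF2f/f and 2.39 CPM in the other. For every 100 Myog UMIs there were 7.58 Mstn UMIs in muscle cells and 8.30 in the other assigned cells of the library labelled SRSF2f/f, and 5.42 and 8.59 in the library labelled SRSF2f/w. Against 100 UMIs of Ttn, the titin gene, the values were 8.39 and 9.50, and 9.33 and 10.1. Myog is itself a marker of muscle cells, so the rule for types keeps its UMIs down in other types. Ttn was not used to set the types. The values of the other assigned cells pool all their types. In the library labelled SRSF2f/w, chondrocytes held 111 of the 198 Myog UMIs of these cells but 3 of the 17 Mstn UMIs. Osteoblasts there held 25 Myog UMIs and 0 Mstn UMIs, so the pooled value does not describe each type. The part of free muscle RNA in the Mstn counts of non-muscle cells was not tested beyond these ratios. The Schwann cells of the library labelled SRSF2f/w departed from these ratios. In them 2 cells held 5 Mstn UMIs, with no Myog UMI but 5 Ttn UMIs in the type. Neurons of the library labelled SRSF2f/f also departed, with 19 Mstn UMIs, 8 of them in 1 cell, beside 108 Myog and 73 Ttn UMIs. Neurons of the other library had 3 Mstn UMIs beside 6 of Myog and 21 of Ttn. Osteoblasts had 0 Mstn UMIs in both libraries, which 3 UMIs as the limit would put at up to 1.71 and 3.25 CPM.

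**Figure D1:**
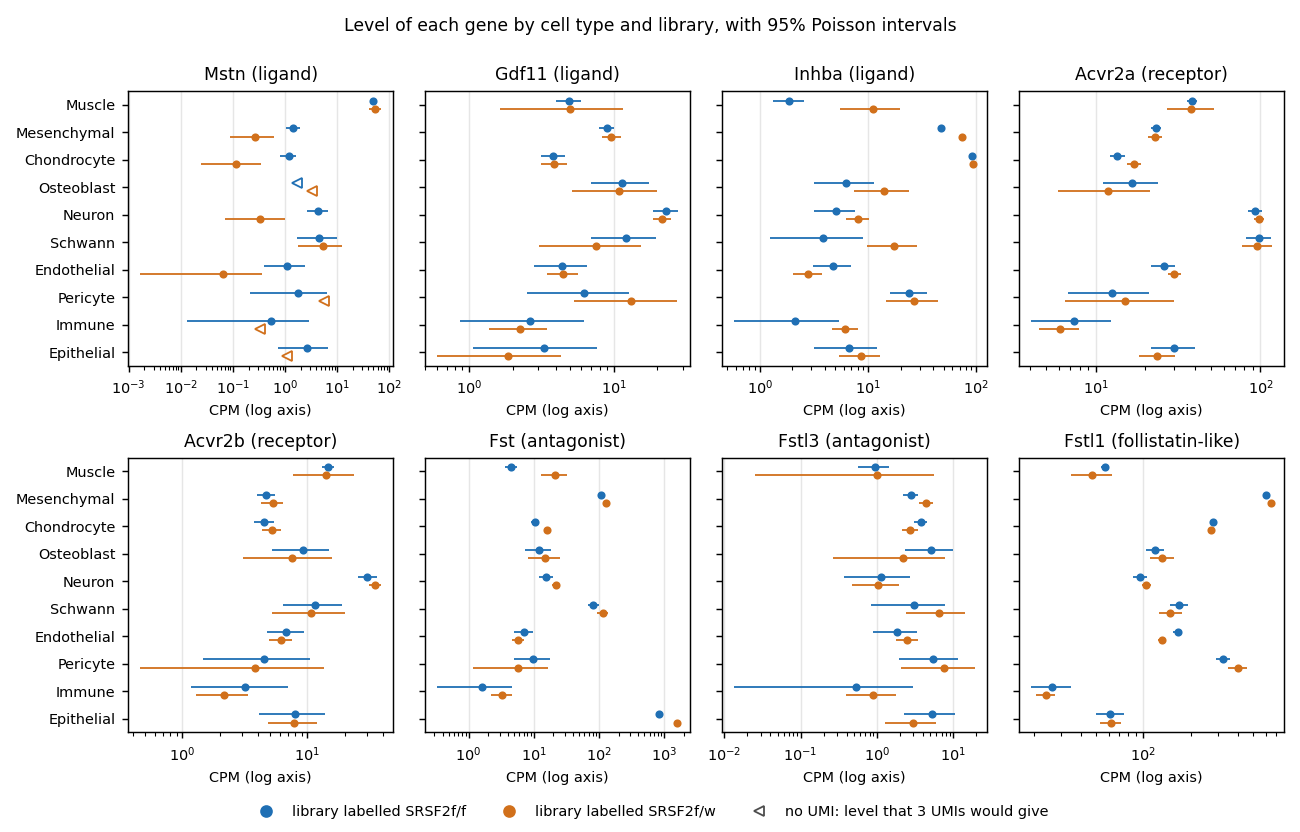
Level of each of the 8 genes (x axis, CPM on a log axis) in 10 cell types, with a point for each library and its 95% Poisson interval, and open triangles at the level that 3 UMIs would give where no UMI was found. Mstn peaked in muscle cells (49.0 and 54.2 CPM), Fst in epithelial cells (849 and 1604 CPM), Inhba in chondrocytes (90.5 and 93.9 CPM) and Fstl1 in mesenchymal cells (602 and 651 CPM).

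Within muscle, Mstn was lowest in progenitors in the library labelled SRSF2f/f. States were set by UMIs of Pax7 and Myf5, which mark progenitors, of Myog, which marks differentiating cells, and of the embryonic myosin gene Myh3. In the library labelled SRSF2f/f, Mstn stood at 29.4 CPM (25.3 to 34.0) in 402 progenitors without Myog, at 54.8 CPM in 377 early Myog cells, at 65.4 CPM in 146 late Myog cells with Myh3, and at 56.0 CPM in 472 other muscle cells. Late Myog cells were above progenitors by a log2 difference of 1.15 (0.83 to 1.48), and early Myog cells by 0.90 (0.62 to 1.18). The library labelled SRSF2f/w had only 12 to 22 cells per state, with Mstn at 63.1, 51.7, 81.3 and 29.8 CPM in the same order, and the intervals of these 4 levels overlapped. All 12 Mstn UMIs of its progenitors lay in 2 cells. Cells with a Mstn UMI also held more RNA of contractile genes than cells without one. Acta1, the skeletal actin gene, was at 128 against 37.2 CPM and Mylpf, a myosin light chain gene, at 563 against 217 CPM in the library labelled SRSF2f/f. Ranked by the smaller of the differences in the libraries, Acta1, Tnnc1, Mylpf, Tnnc2 and Myl1 were the 5 leading genes in this direction. Cald1, Tspo, Crip1, Myf5 and Chodl were those in the opposite one, and Myf5 is also a marker that set the muscle cells and their states. The library labelled SRSF2f/w had 19 cells with and 42 without a Mstn UMI. In the library labelled SRSF2f/f, cells with a Mstn UMI were also slightly deeper, with a median of 15063 against 14169.5 UMIs.

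The receptors and Fstl1 had their own order over the same states of the library labelled SRSF2f/f. Acvr2a was at 38.4 CPM in progenitors, 31.7 in early and 45.3 in late Myog cells, and late cells did not differ from progenitors beyond counting error (log2 difference 0.24, -0.12 to 0.58). Acvr2b, the main receptor of myostatin, fell from 18.0 CPM in progenitors to 9.82 in late Myog cells, a log2 difference of -0.88 (-1.62 to -0.19). Fstl1 fell from 79.6 to 19.2 CPM (-2.05, -2.55 to -1.59). Low members moved as well, with Gdf11 at 6.75 and 2.34 CPM (-1.53, -3.23 to -0.20; 42 and 5 UMIs) and Fst at 2.25 and 8.88 CPM (1.98, 0.91 to 3.09; 14 and 19 UMIs). Mstn and Fst thus were higher, and Acvr2b, Gdf11 and Fstl1 lower, in late Myog cells than in progenitors of this library. In the library labelled SRSF2f/w, Fstl1 was at 63.1 and 19.1 CPM in these states, on 12 and 4 UMIs. In muscle cells with a Mstn UMI of the library labelled SRSF2f/f, 43.9% also had an Acvr2a UMI, 19.5% an Acvr2b UMI and 4.67% a Fst UMI, against 40.2%, 19.2% and 3.72% of all its muscle cells. Of the 19 cells with a Mstn UMI in the library labelled SRSF2f/w, 8 had an Acvr2a UMI (42.1%, against 47.5% of all) and 5 an Acvr2b UMI (26.3% against 19.7%).

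**Figure D2:**
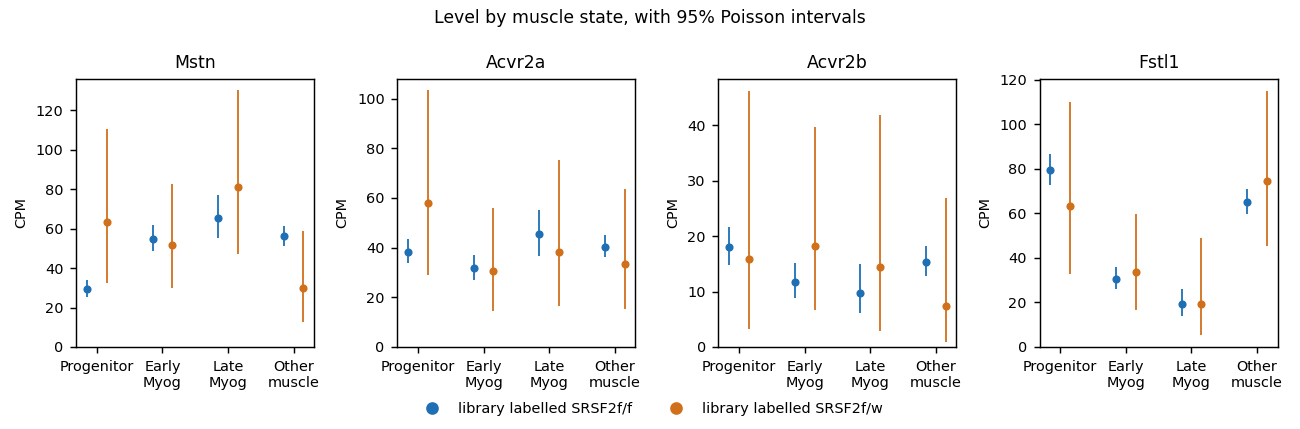
Levels (y axis, CPM) of Mstn, Acvr2a, Acvr2b and Fstl1 in 4 muscle states (x axis), with a point for each library and its 95% Poisson interval. In the library labelled SRSF2f/f, Mstn went from 29.4 CPM in progenitors to 65.4 CPM in late Myog cells and Fstl1 from 79.6 to 19.2 CPM, and the wide intervals of the library labelled SRSF2f/w come from 12 to 22 cells per state.

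Gdf11 was low and widespread, with its highest level in neurons of both libraries. It stood at 23.1 CPM (18.8 to 28.1) in 506 neurons of the library labelled SRSF2f/f and at 21.7 CPM (18.7 to 24.96) in 940 neurons of the other. Mesenchymal cells followed at 8.97 and 9.66 CPM, muscle cells at 4.88 and 5.02 CPM and chondrocytes at 3.82 and 3.89 CPM. Schwann cells, osteoblasts and pericytes lay between 6.25 and 13.3 CPM on 7 to 20 UMIs each, and their intervals overlapped those of mesenchymal cells in both libraries. The interval of Schwann cells in the library labelled SRSF2f/f (6.97 to 19.8) also overlapped that of neurons, as did those of pericytes (5.33 to 27.3) and osteoblasts (5.19 to 19.9) in the library labelled SRSF2f/w. The 2 close relatives Mstn and Gdf11 thus had their highest levels in different cell types. No type with enough UMIs differed in Gdf11 by 1.5-fold between the libraries.

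Inhba was found mainly in chondrocytes and mesenchymal cells, and in a minority of their cells. In chondrocytes it stood at 90.5 CPM (87.0 to 94.1) in the library labelled SRSF2f/f and at 93.9 CPM (90.2 to 97.7) in the library labelled SRSF2f/w, a log2 ratio of 0.05 (-0.03 to 0.13). Only 24.4% of 2160 and 23.7% of 2176 chondrocytes had a UMI of it, yet single cells held up to 74 and 100. The tenth of chondrocytes with the most held 85.4% and 85.1% of all Inhba UMIs in the type. Chondrocytes outside the cell cycle held more by CPM than cycling ones, with 104 against 73.6 CPM in the library labelled SRSF2f/f and 114 against 50.6 CPM in the other. By CPM the library ratio thus had opposite directions in the cycling (log2 ratio -0.54, -0.71 to -0.37) and non-cycling chondrocytes (0.13, 0.04 to 0.23). The shares of cells with an Inhba UMI ran against these directions. They were 23.1% and 25.8% of cycling cells in the libraries labelled SRSF2f/f and SRSF2f/w, and 25% and 23.1% of non-cycling cells. The intervals of the shares overlapped in both sets. Single cells held up to 74 and 26 UMIs in the cycling set and up to 71 and 100 in the other. The direction is therefore not settled in either set. Within each library the share intervals of cycling and non-cycling cells overlapped as well. Cycling chondrocytes were deeper, with medians of 15641.5 against 10535.5 UMIs in the library labelled SRSF2f/f and 15555 against 9550 in the other. Their lower Inhba level is thus a statement on CPM only. Il11, an interleukin gene, Srxn1, an antioxidant gene, and Ptgs2, which encodes cyclooxygenase 2, were among the 5 genes with the largest difference between chondrocytes with and without an Inhba UMI, ranked by the smaller of the differences in the libraries, as was Mustn1. Ptgs2 stood at 114 against 49.9 CPM in the library labelled SRSF2f/f. The globin genes Hbb-bs, Hbb-bt, Hba-a1, Hba-a2 and Hbb-y were highest on the side without an Inhba UMI, with Hbb-bs at 45.7 against 711 CPM. Cells with an Inhba UMI were also deeper there, with a median of 14518 against 11395.5 UMIs, and the part of depth and of free red-cell RNA in these differences was not tested.

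In mesenchymal cells, Inhba was higher in the library labelled SRSF2f/w. It was at 46.8 CPM (44.5 to 49.3; 1477 UMIs in 2874 cells) in the library labelled SRSF2f/f and at 73.5 CPM (69.7 to 77.5; 1378 UMIs in 1632 cells) in the library labelled SRSF2f/w, a log2 ratio of 0.65 (0.54 to 0.76) or 1.57-fold. By CPM the direction was the same in 4 of 4 sets of mesenchymal cells. It was at 61.2 against 93.2 CPM in dermal-type, 32.2 against 59.7 in fascia-type, 76.0 against 96.3 in tendon-type and 38.6 against 52.8 in the other mesenchymal cells. The interval in tendon-type cells spanned no difference (-0.04 to 0.72). In tendon-type cells of the library labelled SRSF2f/w, 41 of the 103 Inhba UMIs lay in 1 of 90 cells. Fewer tendon-type cells had an Inhba UMI there (25.6% against 39.4%), so the direction in this set is not settled. In the libraries labelled SRSF2f/f and SRSF2f/w the shares were 19.3% and 21.5% of fascia-type cells. They were 19.9% and 23.3% of the other mesenchymal cells, and the intervals overlapped in both of these sets. In dermal-type cells the shares were 32.4% (29.6 to 35.3) and 43.0% (39.1 to 47.0). These sets were read from UMIs of genes of each (among them Twist2 and Crabp1 for dermal-type, Dpt and Pi16 for fascia-type, Tnmd and Scx for tendon-type cells) and are names for marker sets only. The difference between the libraries was larger in cycling mesenchymal cells (log2 ratio 0.86) than in non-cycling ones (0.47), where it no longer passed 1.5-fold. At 2000 UMIs per cell, 8.25% (7.26 to 9.31) and 9.94% (8.52 to 11.5) of mesenchymal cells had an Inhba UMI, and these intervals overlap. Within a library, the fascia-type set was under the dermal-type set, by a log2 difference of -0.92 (-1.11 to -0.74) and -0.64 (-0.85 to -0.43). Pericytes came next at 24.1 and 26.5 CPM, and the other types lay at or under 17.2 CPM. In muscle cells Inhba was nearly absent, at 1.86 CPM, in the library labelled SRSF2f/f. The 11.0 CPM of the library labelled SRSF2f/w rested on 1 cell with 10 of the 11 UMIs, and without the cell with the most UMIs in each library the log2 ratio in muscle went from 2.57 to -0.74.

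Both type II receptors were highest in neurons or Schwann cells, Acvr2a in both types and Acvr2b in neurons alone. Acvr2a stood at 92.8 CPM (84.0 to 102) in neurons and 97.6 CPM (81.4 to 116) in Schwann cells of the library labelled SRSF2f/f, and at 98.3 and 95.9 CPM in those of the library labelled SRSF2f/w. Neurons and Schwann cells did not differ from each other beyond their intervals. Muscle cells came next at 38.3 (35.7 to 41.0) and 38.1 CPM (27.0 to 52.3). Their intervals overlapped that of the next type, epithelial cells in the library labelled SRSF2f/f and endothelial cells in the other. Epithelial, endothelial and mesenchymal cells were between 22.9 and 30.0 CPM, and immune cells were lowest of the 10 types ranked, at 7.44 and 6.07 CPM. These levels are sums over all neurons of a library, with no statement on kinds of neurons. At 2000 UMIs per cell, 16.1% and 18.3% of neurons had an Acvr2a UMI, against 1.69% and 1.06% of immune cells. In no type with enough UMIs did Acvr2a differ by 1.5-fold between libraries.

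Neurons with an Acvr2a UMI had more Sncg, Fxyd7, Prph and Gal than those without in both libraries. Prph, which encodes the intermediate filament peripherin, was at 1742 against 453 CPM in the library labelled SRSF2f/f, where the median depths of these cells were 7135 and 5886 UMIs. The part of depth in this difference was not tested.

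Acvr2b was at 30.2 CPM (25.2 to 35.8) in neurons of the library labelled SRSF2f/f and at 34.9 CPM (31.1 to 39.0) in those of the other. Muscle cells were second, at 14.7 CPM (13.1 to 16.4) and 14.05 CPM (7.68 to 23.6). They were 2.29-fold (1.98 to 2.64) above the other assigned cells of the library labelled SRSF2f/f. In the other library the fold was 1.67 (0.91 to 2.83), an interval that spans no difference. Schwann cells were at 11.4 and 10.8 CPM, with intervals that overlapped those of muscle. Mesenchymal cells were at 4.69 and 5.28 CPM and chondrocytes at 4.50 and 5.22 CPM. The log2 ratio between libraries was -0.07 (-0.95 to 0.70) in muscle and 0.21 (-0.09 to 0.51) in neurons. Both receptors were thus at like levels in the muscle cells of both libraries, within intervals that for Acvr2b would still allow a difference of 1.5-fold.

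Fst was by far highest in epithelial cells, which in these embryos carry keratin genes such as Krt14 and Krt5. It stood at 849 CPM (804 to 897; 1284 UMIs in 93 cells) in the library labelled SRSF2f/f and at 1604 CPM (1557 to 1653; 4330 UMIs in 123 cells) in the library labelled SRSF2f/w. The median epithelial cell held 8 and 22 Fst UMIs, and the highest held 90 and 204. Fst was 20.4-fold and 39.5-fold above the other assigned cells, and it was the only member among the 1.13% of genes at least 10-fold higher in epithelial cells in both libraries. Epithelial cells were 0.743% and 1.19% of kept cells but held 17.4% and 39.7% of all Fst UMIs.

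Between the libraries, Fst in epithelial cells was 1.89-fold higher in the library labelled SRSF2f/w (log2 ratio 0.92, 0.83 to 1.01). At 2000 UMIs per cell, 58.1% (47.4 to 68.2) and 73.6% (64.8 to 81.2) of epithelial cells had a Fst UMI. The difference was as large among cells without a UMI of Krt1 or Krt10, keratins of the upper layers, at 895 against 1822 CPM. Among cells with one, Fst was at 767 against 1458 CPM. A Krt10 UMI was found in 28.0% and 43.1% of epithelial cells, but also in 24.9% and 24.6% of muscle cells. Cells with a Krt1 or Krt10 UMI were also deeper than those without, with medians of 18490 against 13311.5 UMIs in the library labelled SRSF2f/f. This split therefore cannot be read as one by layer. In cycling cells Fst was at 773 against 1702 CPM. In non-cycling cells it was at 1026 against 1315 CPM, a log2 ratio of 0.36 (0.20 to 0.52) that no longer passed 1.5-fold. Epithelial cells of the library labelled SRSF2f/w were deeper, with a median of 19665 against 13927 UMIs, and held more Krt14, at 2965 against 2071 CPM, while Krt5 was at 911 against 904 CPM. Dcn, a mesenchymal marker, was at 266 and 241 CPM in these cells. All 6 mesenchymal markers together were at 295 and 273 CPM there. An epithelial cell needed a lead of 2 markers over the mesenchymal list, which limits mesenchymal markers in advance. Nothing is therefore read from the low level of those other than Dcn. Epithelial cells without a Fst UMI held more Sbsn, Sprr1b, Krtdap, Krt77 and Lgals3 in both libraries. Krtdap, a gene of differentiating keratinocytes, was at 1490 CPM in the 21 cells without and 162 CPM in the 72 cells with a Fst UMI in the library labelled SRSF2f/f. On the side with a Fst UMI the leading genes were Il24, Cd274, Zdbf2, Lgals4 and Hist1h2ap. Cells with a Fst UMI were deeper, with medians of 15155 against 12868 UMIs in the library labelled SRSF2f/f. In the other library the medians were 20778 against 12550 UMIs, with only 18 cells without a Fst UMI. The part of depth in these differences was not tested.

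**Figure D3:**
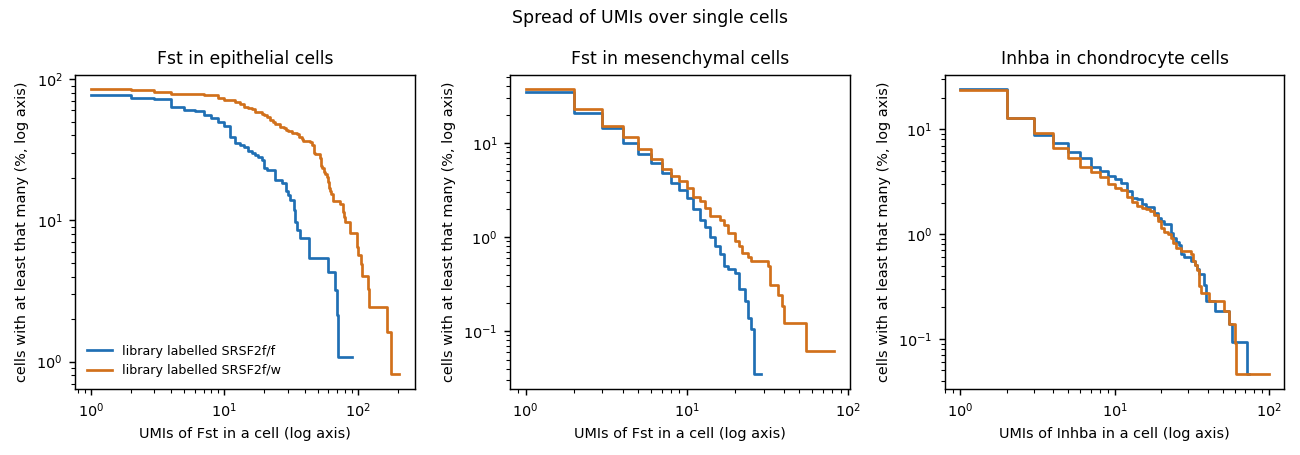
Share of cells (y axis, percent, log axis) with at least a given number of UMIs of a gene (x axis, log axis) for Fst in epithelial and mesenchymal cells and Inhba in chondrocytes, with a line for each library. Fst lines of epithelial cells lie apart, with medians of 8 and 22 UMIs, while those of Inhba in chondrocytes run together up to 74 and 100 UMIs in 1 cell.

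Mesenchymal cells were the second source of Fst and held more of its UMIs than any other type in the library labelled SRSF2f/f (46.2%). They stood at 108 CPM (104 to 112) and 130 CPM (124 to 135), and the log2 ratio of 0.26 (0.19 to 0.34) was under the 1.5-fold limit. At 2000 UMIs per cell, 15.3% and 15.0% of them had a Fst UMI. Krt14, as a measure of free keratinocyte RNA, was at 1.55 and 7.04 CPM in mesenchymal cells. Over all other assigned cells together there were 2732 and 674 Fst UMIs for every 100 of Krt14, against 41.0 and 54.1 in epithelial cells. Krt14 is itself a marker of epithelial cells, so the rule for types keeps its UMIs down in other types. The part of free keratinocyte RNA in the Fst counts outside epithelial cells was not tested beyond these ratios. The sets of mesenchymal cells differed strongly. The fascia-type set was at 175 and 257 CPM, the dermal-type set at 71.8 and 95.2 CPM and the tendon-type set at 48.7 and 36.5 CPM. Fascia-type over dermal-type was a log2 difference of 1.28 (1.16 to 1.40) in the library labelled SRSF2f/f and 1.44 (1.30 to 1.57) in the other, and tendon-type was under dermal-type by -0.56 (-0.88 to -0.25) and -1.38 (-1.89 to -0.92). Fst and Inhba thus had opposite orders in dermal-type and fascia-type cells of both libraries. Mesenchymal cells with a Fst UMI held more Cd55, Ccn3, Ugdh, Mfap5 and Prss23, and those without more Ptgds, Vtn, Tnmd and Slc6a13. Those with a Fst UMI were also deeper, with medians of 11065 against 9250 and 11870.5 against 9343.5 UMIs, and the part of depth was not tested.

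**Figure D4:**
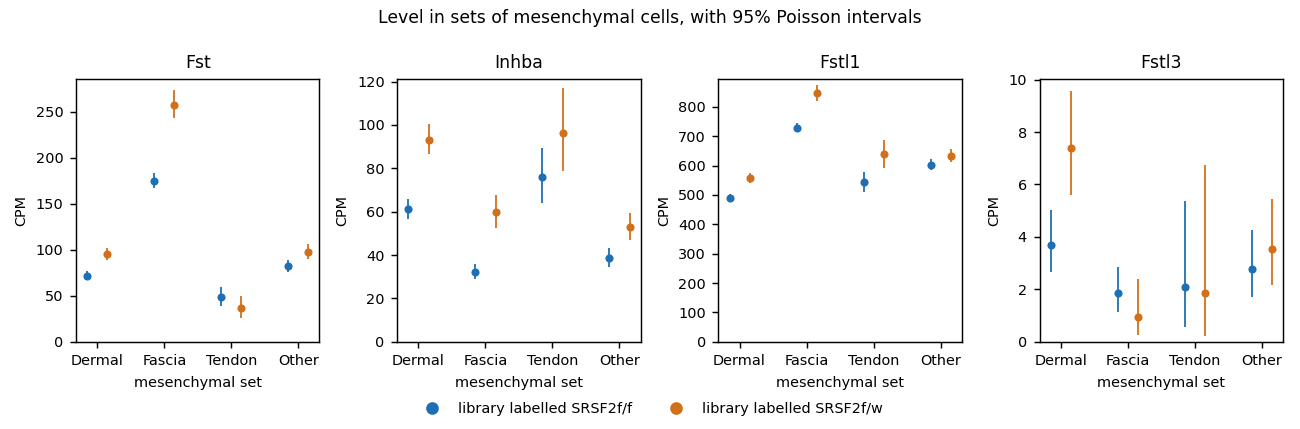
Levels (y axis, CPM) of Fst, Inhba, Fstl1 and Fstl3 in dermal-type, fascia-type, tendon-type and other mesenchymal cells (x axis), with a point for each library and its 95% Poisson interval. Fst was highest in the fascia-type set (175 and 257 CPM), where Inhba was lower (32.2 and 59.7 CPM) than in the dermal-type set (61.2 and 93.2 CPM).

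Schwann cells held Fst at 82.4 CPM (67.6 to 99.4) and 114 CPM (93.5 to 138), near the mesenchymal level, and the other types lay at or under 22.1 CPM. In muscle cells Fst was at 4.47 CPM (96 UMIs in 1397 cells) in the library labelled SRSF2f/f, among the lowest types. The 21.1 CPM in 61 muscle cells of the library labelled SRSF2f/w came from 21 UMIs, of which 14 lay in 1 late Myog cell. Without the cell with the most UMIs in each library the log2 ratio in muscle went from 2.24 to 0.78, and it was -0.64 when markers were read at 2000 UMIs per cell, so the direction in muscle is not settled. In chondrocytes Fst was at 10.3 and 15.996 CPM, a log2 ratio of 0.64 (0.42 to 0.86). Krt14 was at 1.82 and 6.15 CPM and Krt5 at 0.893 and 2.88 CPM in the same cells. The part of free keratinocyte RNA in this Fst difference was not tested.

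Fstl3 was low in each of the 10 types ranked, from 0.53 to 7.58 CPM. In mesenchymal cells it stood at 2.76 CPM (87 UMIs) and 4.43 CPM (83 UMIs), a log2 ratio of 0.68 (0.23 to 1.13), and in the dermal-type set at 3.71 and 7.38 CPM, a log2 ratio of 0.99 (0.39 to 1.60). The mesenchymal difference was 0.55, under the 1.5-fold limit, when markers were read at 2000 UMIs per cell. In chondrocytes the direction was the reverse, at 3.75 and 2.72 CPM, with a log2 ratio of -0.46 (-0.92 to -0.01).

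Fstl1 was detected most often of all members, in 74.6% and 70.9% of kept cells, and its total level was the same in both libraries at 308 CPM. Mesenchymal cells were highest, at 602 CPM (593 to 610) and 651 CPM (639 to 662), with a UMI in 96.5% and 95.8% of cells. Pericytes followed at 322 and 400 CPM and chondrocytes at 278 and 269 CPM, and none of these 3 types overlapped the next in its interval. Schwann, endothelial, osteoblast and neuronal cells lay between 95.1 and 169 CPM, epithelial cells were at 61.5 and 62.2 CPM, muscle cells at 56.8 and 47.2 CPM and immune cells at 26.0 and 24.0 CPM. Fascia-type cells were above dermal-type cells by a log2 difference of 0.57 (0.52 to 0.62) and 0.61 (0.54 to 0.67), in the same order as Fst. In no type with enough UMIs did Fstl1 differ by 1.5-fold between libraries.

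The comparison of libraries can be read against all genes. A gene was counted as past the limit with at least 50 UMIs over both libraries and a difference over 1.5-fold. In all kept cells 23% of 17243 genes were past it, as were 2 of 8 members, Mstn lower and Fst higher (1.82-fold) in the library labelled SRSF2f/w. Epithelial cells, 0.743% and 1.19% of kept cells, held 17.4% and 39.7% of the Fst UMIs, and their part in the Fst call was not tested. In muscle cells 25.3% of genes and 2 of 7 members were past it, Fst and Inhba. The Inhba call rested on 1 cell with 10 of 11 UMIs in the library labelled SRSF2f/w. For Fst, 1 cell held 14 of the 21 UMIs there, and without the top cells the levels were 4.19 and 7.19 CPM. In mesenchymal cells 9.56% of genes and 3 of 8 members were past it, with Inhba and Fstl3 higher and Mstn lower, the last on 46 and 5 UMIs. Myog was at 15.5 and 1.71 CPM and Ttn at 14.6 and 1.92 CPM in the same mesenchymal cells. The part of free muscle RNA in this Mstn call was not tested. In chondrocytes 7.58% of genes and 1 of 7 members were past it (Fst, higher, as were Krt14 and Krt5 there). In neurons 6.74% of genes and 1 of 6 members were past it (Inhba, higher, with an interval from -0.04 to 1.43). In endothelial cells the shares were 8.86% and 1 of 6 (Inhba, lower, on 26 and 43 UMIs). In immune cells 24.8% of genes and 1 of 3 members (Inhba, on 4 and 55 UMIs) were past it, and in epithelial cells 17.7% and 1 of 3 (Fst). No member was past it in osteoblasts (11.7% of genes, 1 member with enough UMIs), Schwann cells (12%, 3 members) or pericytes (15.7%, 1 member). With 1 to 8 members per type these shares move in large steps, 3 of 8 members in mesenchymal cells is the share farthest above its background, and its Mstn and Fstl3 calls rest on few UMIs.

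**Figure D5:**
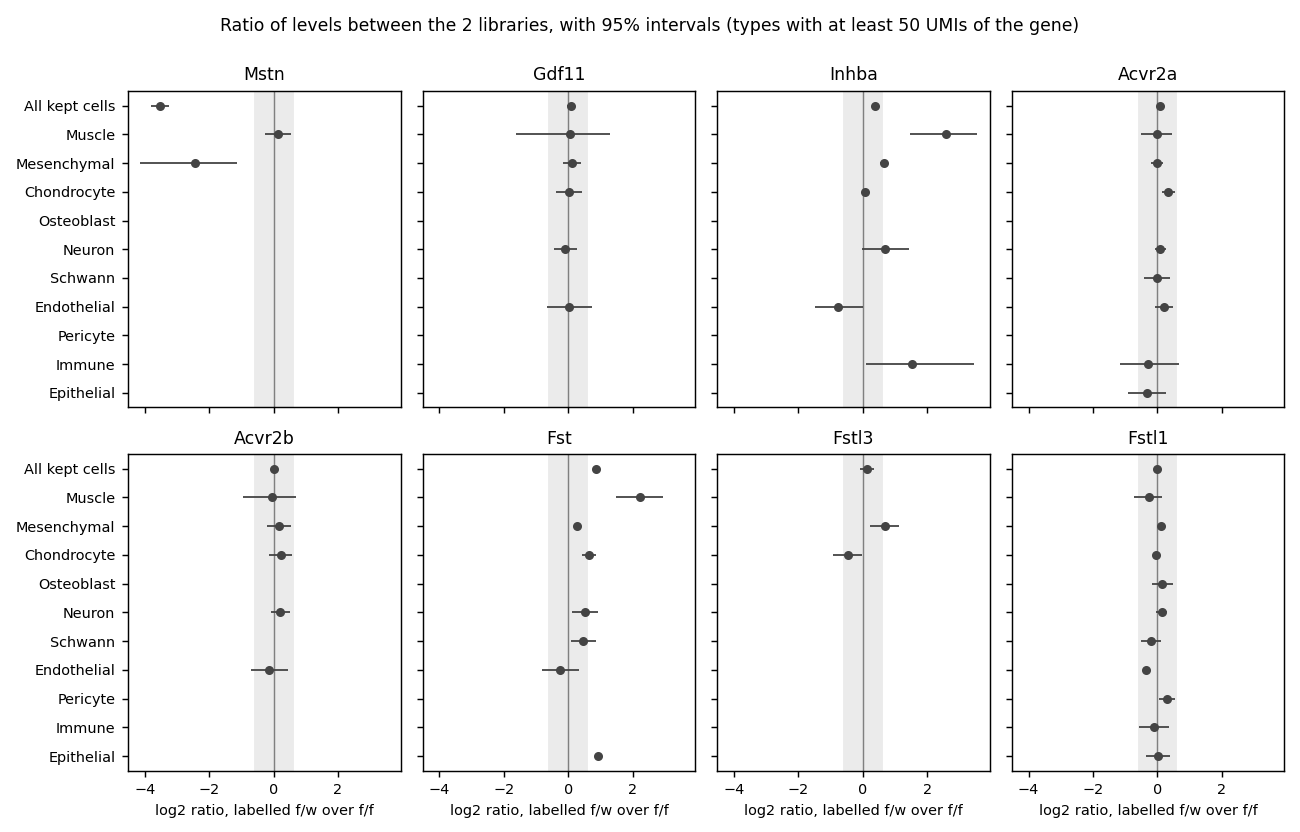
Log2 ratio of the level in the library labelled SRSF2f/w over the library labelled SRSF2f/f (x axis) for each of the 8 genes in all kept cells and 10 cell types (y axis), with the 95% interval, for types with at least 50 UMIs of the gene, and with the range within 1.5-fold in grey. Mstn was at -3.53 in all kept cells but at 0.15 in muscle cells, and both receptors and Gdf11 lay within the grey range in every type plotted.

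Of 50 further genes of the TGF-beta, activin and BMP pathways, 34 had enough UMIs in muscle cells, and 1 was higher and 10 were lower in the library labelled SRSF2f/w, with a median log2 ratio of -0.26 against -0.09 over all genes. Genes in muscle leaned the same way as a whole, with 735 higher and 1906 lower of 10444 (25.3% in either direction), and nothing particular to the pathway is read from its count. The higher one was Bambi, a decoy receptor (6.33 and 10.03 CPM; log2 ratio 0.67, -0.43 to 1.59). Among genes of ligand processing and storage, Ltbp4 (26.7 and 13.0 CPM), Ltbp1, Bmp1 and Pcsk5 were lower, of which only the interval of Ltbp4 did not span 0. BMP1 cleaves the propeptide that holds myostatin inactive, and its gene was at 11.5 and 7.02 CPM, with a log2 ratio of -0.71 whose interval (-2.04 to 0.35) spans 0. Among receptors, Tgfbr2 (12.4 and 1.003 CPM) and Bmpr1b (14.8 and 3.01 CPM) were lower, and the remaining ones were Bmp4, Chrd, which encodes the BMP antagonist chordin, Smad1 and Smurf1. All but Smad1 and Ltbp4 had 10 or fewer UMIs in the library labelled SRSF2f/w, and the intervals of 4 of the 10 lower genes (Ltbp4, Tgfbr2, Bmpr1b and Smad1) did not span 0, while the others did. In mesenchymal cells 45 of the 50 had enough UMIs, of which Tll1, a protease gene of the BMP1 family, was higher (2.85 and 4.59 CPM) and Gdf5 and Acvr1b, which encodes the type I receptor ALK4, were lower (5.01 and 3.20 CPM for Acvr1b). The median log2 ratio there was 0.00 against -0.06 over all genes.

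The genes with the most similar levels over 10 cell types, by Pearson's r of log2 CPM with 1 added, differed between the libraries for 7 of the 8 members. For Mstn they were Srl, Tfdp2 and Myf5 (r = 0.98, 0.98 and 0.96) in the library labelled SRSF2f/f and Myoz2, Hspb3 and Tmem88b (0.998, 0.99 and 0.98) in the other, of which Myf5 is one of the markers that set the muscle cells. Fst went with Cldn1, Med13 and Wnt6 and with Flvcr1, Krt19 and Klf5, and Inhba with Hsd17b7, Csnk1g2 and Vegfa and with Islr, Gpc3 and Has2. Acvr2a went with Zfp236, Vezf1 and Gm5577 and with Slc24a5, Orc4 and Dtna, of which Orc4 overlaps it on the opposite strand. For Acvr2b they were Usp20, Mkrn3 and Inpp4a and then Zbtb12, Zfp317 and Tmem74b. For Gdf11 they were Gm11444, Gcc2 and Zfp454 and then Klhl42, Tuba1a and Ehmt2, and for Fstl3 Slc12a4, Gm26802 and Egr1 and then Herpud2, Mex3c and Vcl. Fstl1 went with Igsf10, Maged2 and Tgfb1i1 and with Zfp948, Nufip2 and Igsf10, so that Igsf10 was the one gene named in both libraries (r = 0.97 and 0.96). The points are 10 types of 1 library that share its depth and sort, and the values are a description.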

How the data were processed

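Libraries were made with the Chromium 3′ v3.1 kit. The authors mapped reads to mm10, counted UMIs per gene on the sense strand without introns and called cells with Cell Ranger (5.0.0 in the matrix header; the submitters' processing notes name 3.1.0), and down-sampled reads when both libraries were joined. The deposited values are raw counts. Barcode suffixes were matched to libraries by the cell numbers of the authors' summaries. The number of embryos per library is not given in the sources used here.

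The filter on cells removed those more than 2 SD from their library's mean of log10 UMIs or of log10 genes, and those over 10% in mitochondrial UMIs. A cell took a type with UMIs of at least 2 of its 6 markers and a lead of 2 over every other type. No doublet caller was run. Levels are summed UMIs per 1000000 UMIs (CPM) with exact Poisson intervals, shares have Clopper-Pearson intervals, and ratios exact conditional binomial intervals, all at 95%. Early and late Myog cells had at least 3 Myog UMIs and no Pax7 or Myf5, split at 3 Myh3 UMIs. Progenitors had a Pax7 or Myf5 UMI and no Myog. Cycling cells had UMIs of at least 2 of 6 cycling genes. Similar genes were sought among those with at least 200 UMIs. Genes named beyond the 8 members were pathway genes past 1.5-fold in muscle or mesenchymal cells, the 3 most similar genes, and, chosen after their values were seen, the 5 genes with the largest difference, by the smaller of both libraries' values, between cells with and without a UMI (20 CPM added). Some of these genes, and a split of the neurons, are not reported here. Members and lists were chosen with earlier results of these data known. Coordinates are from GENCODE M21, which held 99.8% of the gene identifiers. Python 3.11.15 was used with NumPy 2.4.6, SciPy 1.17.1 and pandas 2.3.3, and the ratio functions were tested on simulated counts.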

Additional observations from a re-analysis of the deposited data

How the results depend on the processing

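Of 426 values recomputed for 78 results, 344 stayed within the main 95% interval (counts within 1.5-fold) and 80 moved beyond it. The sign of 7 log2 values changed, those of Fst and Inhba in muscle given here and otherwise Acvr2a or Acvr2b values whose main interval spanned 0. With 2-fold as the limit, 1 member was past it in all kept cells, 1 in mesenchymal cells and 0 in chondrocytes, neurons, endothelial and epithelial cells. With a 5% mitochondrial limit the counts were 1 in muscle and 2 in endothelial cells, and the log2 ratio of Fst in epithelial cells was 0.72. With a lead of 1 marker they were 0 in neurons, 2 in Schwann, 3 in immune and 2 in epithelial cells, the Inhba ratio in chondrocytes was 0.18, and Fst in fascia-type over dermal-type cells of the library labelled SRSF2f/w was 1.22. With markers read at 2000 UMIs they were 1 in muscle, 1 in mesenchymal cells, 2 in chondrocytes, 0 in neurons, 0 in endothelial cells and 1 in pericytes, and the Fst ratio in muscle was -0.64, with no value for Inhba there. Chosen after seeing the data: without the cell with the most UMIs the muscle ratio was 0.78 for Fst and -0.74 for Inhba, and the Fst ratio in epithelial cells was 1.03 without Krt1 or Krt10, 1.14 in cycling and 0.36 in non-cycling cells, and that of Inhba in mesenchymal cells 0.86 and 0.47. The cause was not tested beyond the removed cell. Leaving haemoglobin, mitochondrial and ribosomal genes out of the total raised all levels. The 61 muscle cells of the library labelled SRSF2f/w limit every muscle comparison. No paired analysis was possible because each label has 1 library.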

Other observations

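The 8459 unassigned cells also held these genes. Mstn was at 12.0 CPM in 4680 unassigned cells of the library labelled SRSF2f/f and at 1.43 CPM in 3779 of the library labelled SRSF2f/w. Fst was at 38.7 and 83.7 CPM, Inhba at 30.7 and 52.3 CPM and Fstl1 at 313 and 380 CPM, each higher in the library labelled SRSF2f/w, while Acvr2a (30.0 and 32.0 CPM) and Acvr2b (9.62 and 9.73 CPM) were near-equal there.

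Fst and Inhba UMIs shared cells in mesenchymal cells at a rate close to their separate shares. Of cells with a Fst UMI, 24.0% had an Inhba UMI in the library labelled SRSF2f/f, against 25.5% of all mesenchymal cells, and 32.4% against 30.6% in the library labelled SRSF2f/w. In chondrocytes the shares were 37.2% against 24.4% and 33.3% against 23.7%. Cells were not thinned for these shares.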
